A study of Saccharomyces cerevisiae with 6 samples.

Results

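The genes described here are 33 genes of Saccharomyces cerevisiae, baker's yeast, that encode the enzymes and regulators of glycolysis, alcoholic fermentation and glycerol formation. They were chosen by gene symbol in the platform annotation, and all 33 were found, with 1 array feature each, among 6470 genes and unnamed features. By role they are 15 glycolytic enzyme genes, 3 pyruvate decarboxylase genes, 4 alcohol dehydrogenase genes, 4 genes of the glycerol branch, 3 genes for enzymes that make or break down fructose 2,6-bisphosphate, and 4 transcription factor genes.

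Glycolysis turns glucose into pyruvate and yields ATP and NADH. In fermenting yeast, pyruvate decarboxylase converts pyruvate to acetaldehyde, and alcohol dehydrogenase reduces acetaldehyde to ethanol, which regenerates the NAD+ that glycolysis needs. Without oxygen, surplus NADH is disposed of by making glycerol through glycerol 3-phosphate dehydrogenase and glycerol phosphatase. Once oxygen is present, mitochondrial enzymes at the inner membrane can oxidise cytosolic NADH instead. Fructose 2,6-bisphosphate is a signal molecule that activates phosphofructokinase, and the factors Gcr1, Gcr2 and Tye7 activate the transcription of glycolytic genes.

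Cultures were grown without oxygen, in bottles of synthetic complete medium to which ergosterol, unsaturated fatty acids and amino acids were added, with sodium dithionite used to remove remaining oxygen. Exponentially growing cells were aerated for 5, 10, 20, 60 or 120 min, and the RNA of each time, from a flask of its own, was compared on 2-colour arrays with pooled RNA taken from the cultures at 0 min, before aeration. Each aeration time is 1 sample that condenses a dye-swap pair of arrays, and 1 further sample is the pool hybridised against itself. The labels name no strain.

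Every value below is a log2 ratio of aerated cells over the anaerobic pool, so a value above 0 means more transcript after aeration relative to the other genes on the array. The deposited values were read as natural logs, because the lowest of them, -4.6051702, is the natural log of 0.01; no label gives the base, and if the values were log2 each one below would shrink by a factor of 0.6931. The direction is likely, from the sample titles, and is not settled by the labels, which list the aerated RNA as channel 2 at 5 and 10 min and as channel 1 at the later times. Over 6081 genes the 10 and 20 min samples, which lie on either side of that change of channel, correlated at 0.646, and the 5 and 10 min samples at 0.382 over 6018 genes. No pair of aerated samples correlated below 0, the lowest value being 0.025 for 5 and 60 min. If the direction were turned, higher and lower would change places throughout, and a rank counted below from the lowest value would be the same rank from the highest. The 5 min sample's source names give it as aerated RNA, but its description repeats that of the self-hybridisation. Those 2 samples correlated at 0.113 over 3512 genes. The median absolute deviation of all genes, scaled to match an SD, was 0.27, 0.36, 0.34, 0.82 and 0.35 from 5 to 120 min, and 0.36 in the self-hybridisation. The 60 min sample was thus the widest, and 24.3% of its genes lay at least 2-fold from the pool. With 1 sample a time, a value at a single time has no replicate error and no test. No spot signal was used here, and precision is limited by how few arrays there are.

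Across the 15 glycolytic enzyme genes the departures from the pool were small, and every gene was lower at 20 than at 10 min. From 5 to 120 min the median of the 15 was 0.28, 0.15, -0.26, -0.10 and -0.20. Above the pool were 12 of 15 at 5 min and 14 of 15 at 10 min, where 50.1% and 50.0% of all genes were above 0. Below it were 14 of 15 at 20 min, 12 of 15 at 60 min and 13 of 15 at 120 min, where 49.8%, 54.4% and 48.6% of all genes were above 0. In all 15 genes the 20 min value was lower than the 10 min value, and it was also lower than the 5 min value, as it was in 49.5% and 49.4% of all genes. The median difference of the 15 genes was -0.38 for 20 minus 10 min, a 1.30-fold lower level, with single genes between -1.23 and -0.11. The pool cancels from such differences, and each compares 1 flask with another. The channel that the labels list for the aerated RNA also changes between 10 and 20 min. Each sample condenses both dye orientations, and whether the change of channel has a part in the step was not tested.

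**Figure D1:**
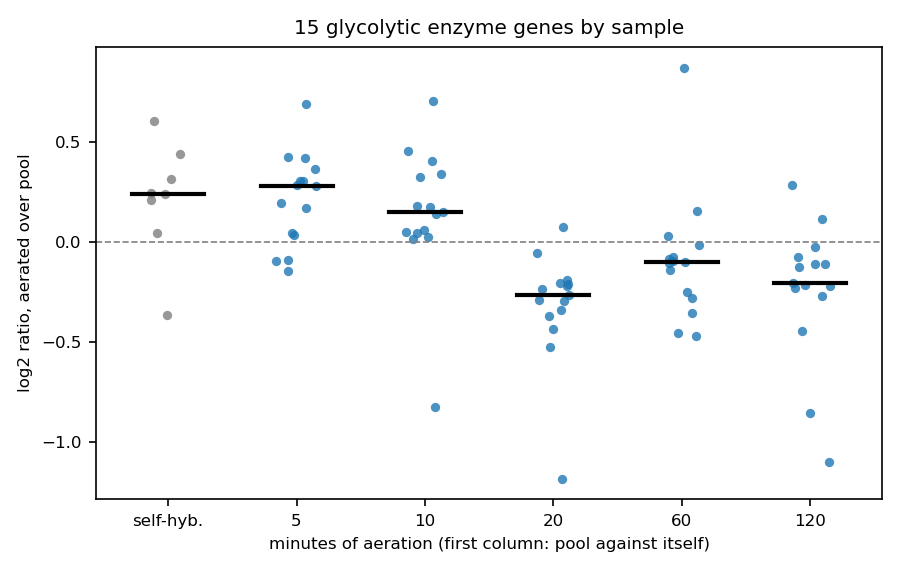
Log2 ratio of aerated over anaerobic RNA (vertical axis) for each of the 15 glycolytic enzyme genes (points) in each sample, by minutes of aeration (horizontal axis, in order and not to scale), with the pool against itself in the first column (grey, 8 genes with a value). The black bars are medians over genes, which are not replicates: 0.28, 0.15, -0.26, -0.10 and -0.20 from 5 to 120 min, and 0.24 in the self-hybridisation.

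In the 8 enzyme genes with a self-hybridisation value the early medians lay no farther above 0 than that of the pool against itself, though single genes did. The self-hybridisation gave a value for 8 of the 15 enzyme genes, of which 7 were above 0, and their median was 0.24. From 5 to 120 min the same 8 genes had medians of 0.24, 0.05, -0.21, -0.09 and -0.16. PGI1, for example, had 0.19 at 5 min and 0.34 at 10 min, beside a self-hybridisation value of 0.05, and CDC19 had 0.28 at 5 min, beside -0.36. Enzyme genes farther from 0 than the self-hybridisation's own spread of 0.36 numbered 4, 4, 4, 3 and 3 of 15 in the same order of times, where the shares of all genes were 23.1%, 33.8%, 31.7%, 67.9% and 31.2%. Those counts include PYK2 at 10, 20 and 120 min and TDH1 at 5, 10 and 20 min.

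Among the upper enzymes, PFK1 (YGR240C), the alpha subunit of phosphofructokinase, was at 0.04, 0.02, -0.22, -0.08 and -0.03 from 5 to 120 min, a range of 0.26 that is wider than in 1.89% of the 5771 genes with all 5 values or equal to it. PFK2, its beta subunit, was at 0.29, 0.06, -0.20, 0.87 and -0.22, so the subunit genes stood within 0.24 of each other at all times except 60 min, where PFK2 was higher by 0.95. PGI1, phosphoglucose isomerase, lay between -0.23 and 0.34, FBA1, aldolase, between -0.45 and 0.14, and TPI1, triose phosphate isomerase, between -0.25 and 0.30. None of these 5 genes was 2-fold from the pool at any time.

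HXK2 (YGL253W), the main hexokinase during growth on glucose and also a mediator of glucose repression, was at 0.17, 0.18, 0.08, -0.10 and -1.10. It was close to the pool for the first 60 min and 2.15-fold below it at 120 min, where it ranked 81 from the lowest of 6264 genes. Its self-hybridisation value was 0.21. The slope on log2 of minutes was -0.24 ± 0.10 (SE, n = 5) per doubling of the aeration time, with an unadjusted p of 0.0445 in limma and an adjusted p of 0.936 over all genes. Without the 120 min sample the slope was -0.08. Its late minus early difference was -0.77 ± 0.43 (limma, unadjusted p = 0.127, adjusted p = 0.788), with -0.27 without 120 min and -1.28 without 60 min.

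The 3 genes of glyceraldehyde 3-phosphate dehydrogenase, the step that makes NADH, shared a course. TDH3 (YGR192C), the major form, was at 0.42, 0.46, -0.26, -0.28 and -0.20. TDH2 was at 0.36, 0.32, -0.30, -0.11 and -0.22, never more than 0.17 from TDH3. TDH1 (YJL052W), a form known from slow-growing and stressed cells, was at 0.69, 0.71, -0.52, -0.09 and 0.29. All 3 were above the pool at 5 and 10 min and below it at 20 min, and TDH1 had the largest step of the enzyme genes between 10 and 20 min, -1.23. None of the 3 has a self-hybridisation value. The coding sequences of TDH2 and TDH3 are closely alike, as are those of ENO1 and ENO2, PDC1 and PDC5, and ADH1 and ADH2. Which part of a gene each feature carries was not known here, so similar values within such a pair may come from shared hybridisation, which was not tested.

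In the lower part of the pathway PGK1, phosphoglycerate kinase, was at 0.30, 0.40, -0.05, -0.35 and -0.08, and GPM1, phosphoglycerate mutase, at 0.42, 0.15, -0.21, -0.10 and -0.13. The enolase genes ENO1 and ENO2 differed from each other by at most 0.16 at any time and were lowest at 20 min, at -0.37 and -0.43. CDC19 (YAL038W), the major pyruvate kinase, was at 0.28, 0.05, -0.29, -0.47 and -0.44. PYK2 (YOR347C), the minor pyruvate kinase whose gene is repressed by glucose, was at -0.14, -0.82, -1.18, 0.03 and -0.86. It was the lowest of the enzyme genes at 10 and 20 min, with a 2.27-fold lower level at 20 min. Apart from HXK2 at 120 min, no other of the 15 was 2-fold from the pool at any time. PYK2 was at 0.61 in the self-hybridisation, and at 60 min it did not differ from the pool by more than the self-hybridisation's spread. Its mean over the 5 times was -0.59 ± 0.20 (SE, n = 5, limma, unadjusted p = 0.0188, adjusted p = 0.232). With limma's array weights, which give a sample of wide spread less weight, it was -0.76 ± 0.15 (adjusted p = 0.0152). With those weights 552 of all 5771 genes passed for the mean.

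**Figure D2:**
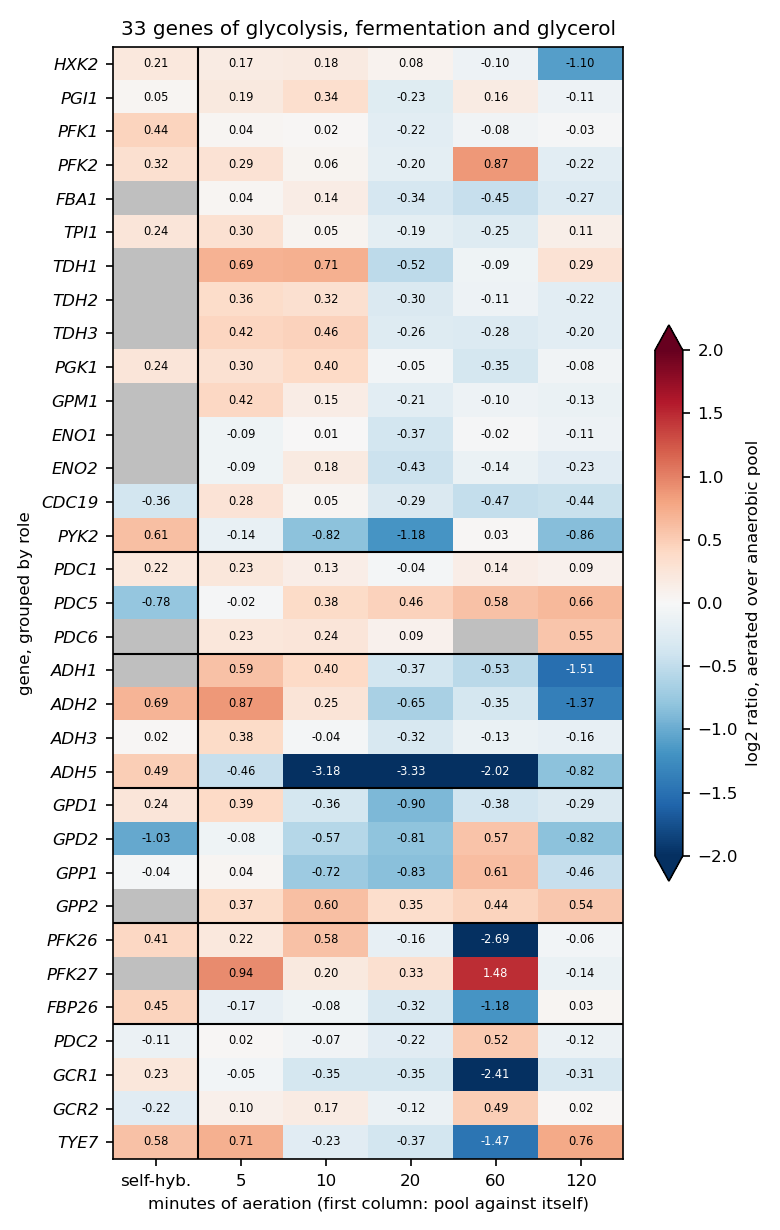
Log2 ratio of aerated over anaerobic RNA for the 33 genes (rows, with lines between the roles) in the self-hybridisation and at 5 to 120 min of aeration (columns), with colour from blue (-2 or lower) through white (0) to red (2 or higher) and the value printed in each cell. Grey cells have no value, which is the case for 11 genes in the self-hybridisation and for PDC6 at 60 min; ADH5 at -3.18 and -3.33 and PFK26 at -2.69 are the 3 lowest cells.

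The pyruvate decarboxylase genes were near the pool or above it at every time measured. PDC1 (YLR044C), the main form, was at 0.23, 0.13, -0.04, 0.14 and 0.09, which is a range of 0.27. PDC5 (YLR134W), the second form, was at -0.02, 0.38, 0.46, 0.58 and 0.66. PDC5 was at the level of the pool at 5 min and above it at the 4 later times, and it was the single one of the 33 genes with a higher value at 20 than at 5 min. Its mean was 0.41 ± 0.14 (SE, n = 5; limma, unadjusted p = 0.0209, adjusted p = 0.243), and it was at -0.78 in the self-hybridisation. PDC6, a minor form, was at 0.23, 0.24, 0.09 and 0.55 at 5, 10, 20 and 120 min. PDC2, which encodes an activator of the pyruvate decarboxylase genes, lay between -0.22 and 0.52.

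The alcohol dehydrogenase genes included the lowest ratios of the 33 genes. ADH5 (YBR145W), a minor form that can also make ethanol, was at -0.46, -3.18, -3.33, -2.02 and -0.82. It was nearest to the pool at 5 min, 9.05-fold below it at 10 min, 10.1-fold below it at 20 min and 4.06-fold below it at 60 min, and nearer to the pool again at 120 min, at -0.82. At 10 min it ranked 7 from the lowest of 6091 genes, and at 20 min 5 from the lowest of 6292. At 60 min, in the sample with the widest spread, it ranked 158 from the lowest of 5883. Its 60 min value was -0.89 with every sample centred and scaled to the same spread. It was at 0.49 in the self-hybridisation. The mean over the 5 times was -1.96 ± 0.44 (SE, n = 5; limma, unadjusted p = 0.00218), below 0 in 5 of 5 samples, and did not pass after adjustment over all genes (adjusted p = 0.126). With array weights the mean was -2.28 ± 0.42 and passed (limma, adjusted p = 0.0138), as did that of 552 of all 5771 genes. Over all the alternatives run the adjusted p lay between 0.0138 and 0.441.

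ADH1 (YOL086C), the main enzyme that reduces acetaldehyde to ethanol, was at 0.59, 0.40, -0.37, -0.53 and -1.51. ADH2 (YMR303C), which oxidises ethanol and is repressed by glucose, was at 0.87, 0.25, -0.65, -0.35 and -1.37. Both genes were above the pool at 5 and 10 min and below it from 20 min on, and at 120 min they were 2.84-fold and 2.59-fold below it. At that time they ranked 26 and 34 from the lowest of 6264 genes. The values of the pair differed by at most 0.29 at any time, and this likeness may come from shared hybridisation, which was not tested. ADH2 was at 0.69 in the self-hybridisation, close to its 5 min value, and ADH1 has no value there.

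The slope of ADH1 was -0.43 ± 0.09 per doubling of the aeration time (SE, n = 5; limma, unadjusted p = 0.00211), and that of ADH2 was -0.42 ± 0.10 (unadjusted p = 0.00585). Neither passed over all genes (adjusted p = 0.936 for both). The late mean of ADH1, over 60 and 120 min, was -1.02, against an early mean of 0.49 over 5 and 10 min, a late minus early difference of -1.51 ± 0.43 (unadjusted p = 0.0138, adjusted p = 0.788 in limma). For ADH2 the late mean was -0.86, against an early mean of 0.56, a difference of -1.42 ± 0.47 (unadjusted p = 0.0255, adjusted p = 0.788 in limma). The late value rests on unequal samples: leaving out 120 min gave -1.02 for ADH1 and -0.91 for ADH2, and leaving out 60 min gave -2.00 and -1.93. ADH3, the mitochondrial form, lay between -0.32 and 0.38 and was 2-fold from the pool at no time.

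**Figure D3:**
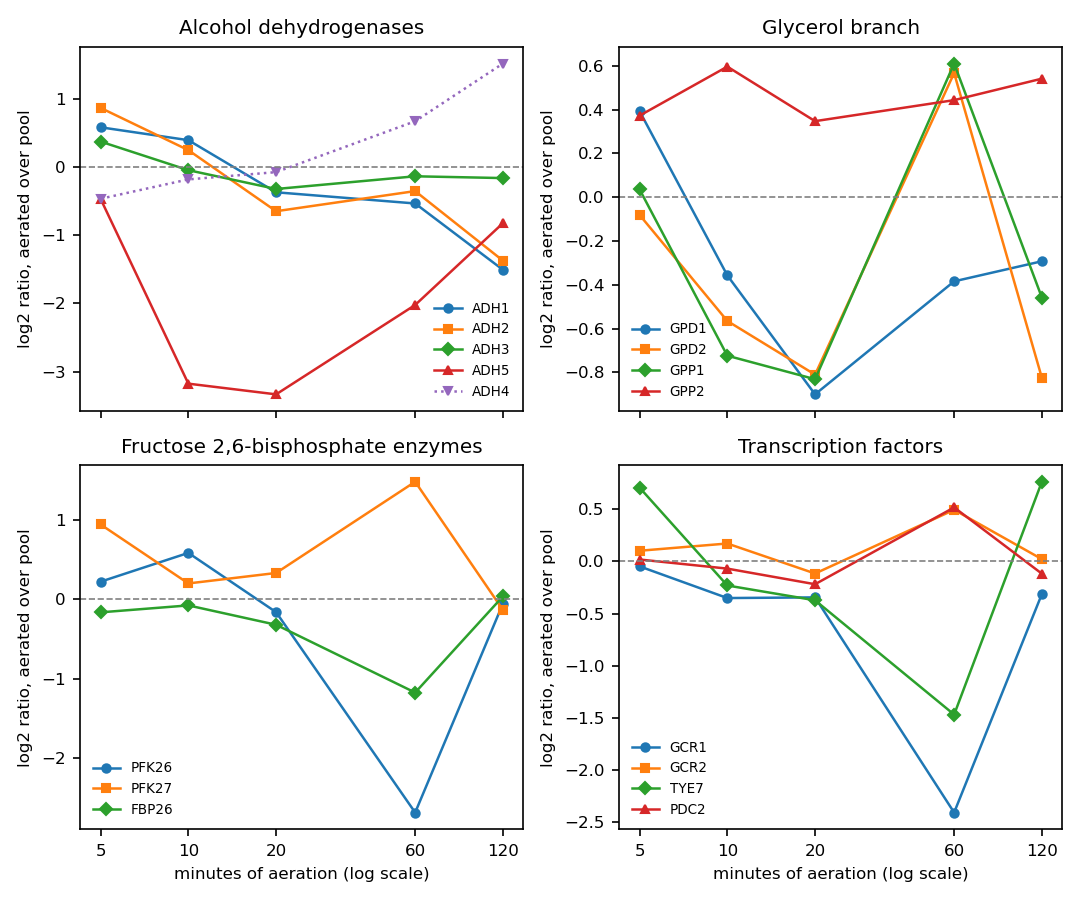
Log2 ratio of aerated over anaerobic RNA (vertical axes, each panel with its own scale) against minutes of aeration (log scale), with 1 sample a point and no error, for the alcohol dehydrogenase genes (with ADH4, which is not among the 33 genes, dotted), the glycerol branch, the fructose 2,6-bisphosphate enzymes and the transcription factors. ADH5 is lowest at 20 min, ADH1 and ADH2 at 120 min, and GCR1, PFK26, FBP26 and TYE7 at 60 min.

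In the glycerol branch 3 of the 4 genes were lower than the pool at 10 and 20 min, and GPP2 was above it throughout. GPD1 (YDL022W), the glycerol 3-phosphate dehydrogenase known for its induction by osmotic stress, was at 0.39, -0.36, -0.90, -0.38 and -0.29. GPD2 (YOL059W), the form known for its induction without oxygen, was at -0.08, -0.57, -0.81, 0.57 and -0.82. GPP1 (YIL053W), the glycerol phosphatase induced without oxygen, was at 0.04, -0.72, -0.83, 0.61 and -0.46. GPD2 and GPP1 thus stood above the pool at 60 min and below it at 10, 20 and 120 min. Their 60 min values lay within that sample's own spread of 0.82. With every sample centred and scaled to the same spread, those values were 0.20 for GPD2 and 0.22 for GPP1. None of the 3 reached 2-fold at any aeration time. The mean of GPD2 was -0.34 ± 0.22 (SE, n = 5, limma, adjusted p = 0.529). With array weights it passed at -0.55 ± 0.14 (adjusted p = 0.0358), as did 552 of all 5771 genes. GPD2 was at -1.03 in the self-hybridisation, lower than in any aerated sample, so its low values cannot be told from that of the pool against itself.

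GPP2 (YER062C), the phosphatase known for induction by osmotic stress, was at 0.37, 0.60, 0.35, 0.44 and 0.54. It was above the pool in 5 of 5 samples and had the narrowest range of the 32 genes with all 5 values, 0.25. Its mean was 0.46 ± 0.12 (SE, n = 5; limma, unadjusted p = 0.0052), which did not pass over all genes (adjusted p = 0.158). It passed with array weights, with a mean of 0.49 and an adjusted p of 0.0166, as did 552 of all 5771 genes. It passed under no other alternative run (highest adjusted p, 0.491). GPP2 has no value in the self-hybridisation. GPP1 was lower than GPP2 at 4 of 5 times, by 1.32 at 10 min and 1.18 at 20 min.

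Before samples were scaled to the same spread, genes of the fructose 2,6-bisphosphate system and of the glycolytic activators departed mainly at 60 min. The 60 min sample had the widest spread. PFK26 (YIL107C), a kinase that makes fructose 2,6-bisphosphate, was at 0.22, 0.58, -0.16, -2.69 and -0.06. PFK27 (YOL136C), the other such kinase, was at 0.94, 0.20, 0.33, 1.48 and -0.14. FBP26 (YJL155C), the phosphatase that breaks the molecule down, was at -0.17, -0.08, -0.32, -1.18 and 0.03. At 60 min PFK26 was therefore 6.43-fold below the pool and PFK27 2.78-fold above it, while at 120 min the 3 genes lay within 0.14 of the pool. In the self-hybridisation PFK26 was at 0.41 and FBP26 at 0.45.

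GCR1 (YPL075W), the central activator of glycolytic genes, was at -0.05, -0.35, -0.35, -2.41 and -0.31, and was thus 5.30-fold below the pool at 60 min. TYE7 (YOR344C), another activator, was at 0.71, -0.23, -0.37, -1.47 and 0.76. It was above the pool at 5 and 120 min and below it in between, and was at 0.58 in the self-hybridisation. GCR2, the partner of Gcr1, lay between -0.12 and 0.49.

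Among all genes at 60 min, PFK26 ranked 54 from the lowest of 5883, GCR1 79, TYE7 376 and FBP26 576, and PFK27 ranked 221 from the highest. When every sample was centred and scaled to the same spread, the 60 min values became -1.18 for PFK26, -1.06 for GCR1, -0.66 for TYE7, -0.54 for FBP26 and 0.59 for PFK27. The late minus early difference of PFK26 was -1.77 ± 0.85 (SE, n = 5; limma, unadjusted p = 0.0837, adjusted p = 0.788). Leaving out 60 min gave -0.46 and leaving out 120 min gave -3.09, each of which leaves 1 sample as late. GCR1 had -1.16 ± 0.70 (limma, unadjusted p = 0.152, adjusted p = 0.788), with -0.11 without 60 min and -2.21 without 120 min. FBP26 had -0.45 with all 5 samples and -1.05 without 120 min. The late values of these genes rest on the 60 min sample, whose labels also hold an extraction text that speaks of 20 min.

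Departures of at least 2-fold were also counted over the 33 genes. At 5 min they numbered 0 of 33 (2.09% of all genes), at 10 min 1 of 33 (4.96%), at 20 min 2 of 33 (4.74%), at 60 min 6 of 32 (24.3%) and at 120 min 3 of 33 (3.19%). The self-hybridisation had 1 of 22, GPD2, where 4.00% of all genes were 2-fold away. At 10 min the gene was ADH5, at 20 min ADH5 and PYK2, at 60 min ADH5, PFK26, PFK27, FBP26, GCR1 and TYE7, and at 120 min ADH1, ADH2 and HXK2. Apart from PFK27 all of these were lower than the pool, and 10 of the 33 genes appear at least once. All 10 are among the 32 genes with all 5 values, so their share is 31.2%, near the 29.3% of all such genes. Of the 32 genes with all 5 values, 14 stayed within 0.5 of the pool at every time (43.8%), as did 28.7% of all 5771 such genes.

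A value above the pool at 5 and 10 min and below it at 20 min was found in 11 of the 15 enzyme genes and in 5 of the 17 others with all 5 values, as in 11.3% of all genes. The 18 genes that are not glycolytic enzymes had medians of 0.22, 0.04, -0.32, -0.13 and -0.13 from 5 to 120 min, and 17 of them were lower at 20 than at 5 min. From 5 to 120 min the median over the 33 was 0.23, 0.14, -0.29, -0.10 and -0.14, where that of all genes was 0.00, 0.00, 0.00, 0.09 and -0.01. In the self-hybridisation 22 of the 33 had a value, with a median of 0.23 and 16 of 22 above 0, where 49.1% of all genes were above 0. Values at 20 min were lower than at 5 min in 32 of 33 genes and lower than at 10 min in 30 of 33, PDC5, PFK27 and GCR1 being the exceptions to the second count. The lowest of the 5 values was at 20 min in 16 of 32 genes (50.0%), as it did in 15.7% of all genes. Values were higher at 120 than at 20 min in 25 of 33 genes, and 8 of 33 were lower at 120 min than at 20 min, against 51.1% of all genes. These 8 were HXK2, PFK2, PGK1, CDC19, ADH1, ADH2, GPD2 and PFK27.

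In the fits across the 5 aerated samples, where each time's own flask serves as a replicate, 0 of the 32 genes tested passed an adjusted p of 0.05 for the mean, the trend or the late minus early difference. Over all 5771 genes 0 passed for the mean (0.00%), 1 for the trend (0.0173%) and 0 for late minus early (0.00%). At an unadjusted p under 0.05 the mean picked 5 of 32 genes (14.1% of all genes), with GPP2, PDC5 and PFK27 higher than the pool and ADH5 and PYK2 lower. PFK27 had a mean of 0.56 ± 0.24 (SE, n = 5; limma, unadjusted p = 0.0459, adjusted p = 0.342), which was 0.33 without 60 min. The trend picked 3 of 32 (2.79% of all genes), all downward, namely ADH1, ADH2 and HXK2. Late minus early picked 2 of 32 (3.60% of all genes), ADH1 and ADH2, whose similar values may come from shared hybridisation, which was not tested. GCR1 and PFK26 were among the 5 largest estimates, with a mean of -0.69 ± 0.33 and a slope of -0.24 ± 0.19 for GCR1 (unadjusted p = 0.0704 and 0.25, adjusted p = 0.413 and 0.936 in limma), and a slope of -0.35 ± 0.24 for PFK26 (unadjusted p = 0.19, adjusted p = 0.936). Without 60 min the mean of GCR1 was -0.26 and its slope -0.04, and the slope of PFK26 was -0.10. Without 120 min the slopes were -0.64 for GCR1 and -0.86 for PFK26. The spread of the pool itself does not enter the test of the mean. The pool cancels from the trend and from late minus early.

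**Figure D4:**
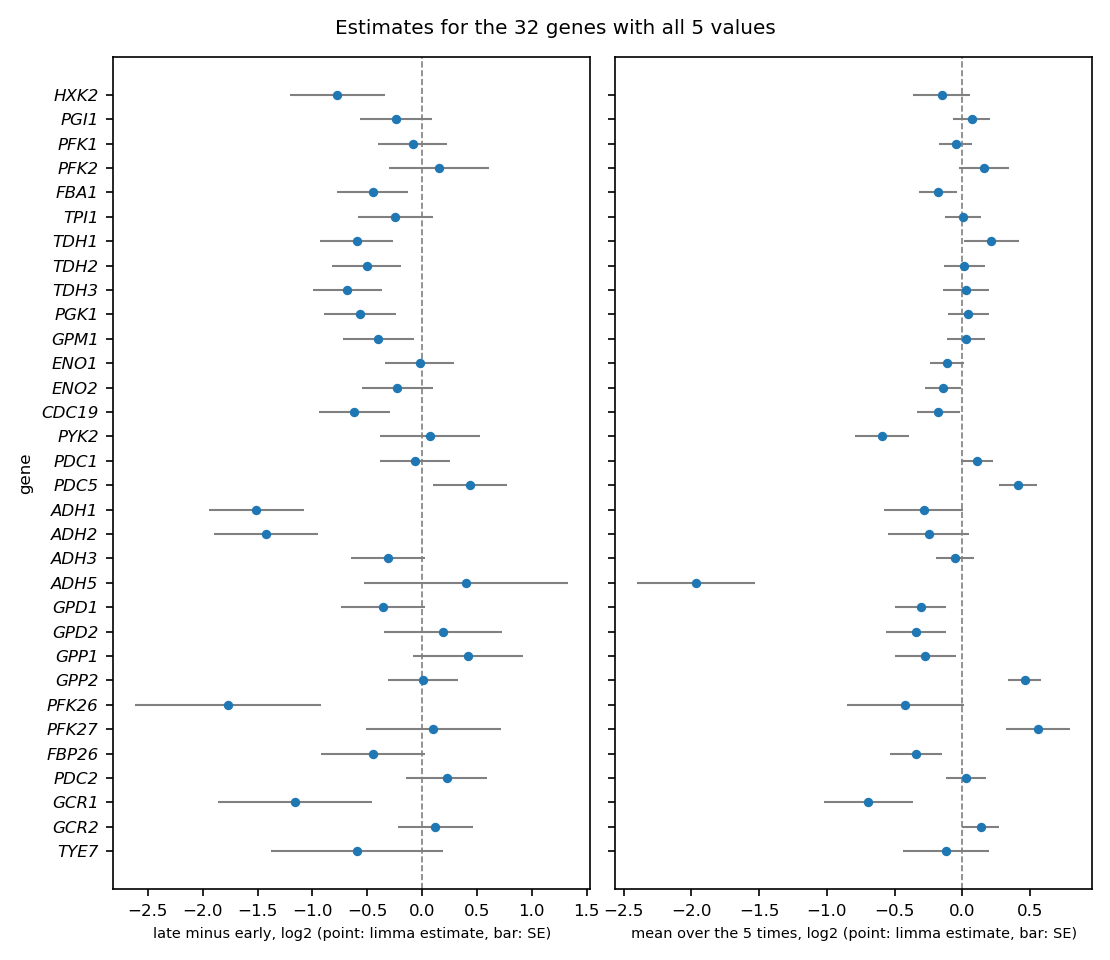
Late minus early difference (left) and mean over the 5 aeration times (right), both as log2 ratios on the horizontal axis, for the 32 genes with all 5 values (rows), with points for the limma estimate and bars for its SE. ADH5 at -1.96 is the lowest mean, GPP2 has a mean of 0.46 with a short bar, and ADH1, ADH2 and PFK26 have the lowest late minus early differences.

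The neighbouring steps of the pathway were taken from a list of 35 other genes, of which all 35 were on the array and 32 were tested. None of the 32 passed over all genes. At an unadjusted p under 0.05 in limma, 3 had a higher and 2 a lower mean than the pool, where 14.1% of all genes passed in either direction. By the same rule 1 had an upward and 2 a downward slope (2.79% of all genes). Late against early, 1 was higher and 3 were lower (3.60% of all genes). Of the 35, 3 lay at least 2-fold from the pool at 2 or more times: NDE1, GCY1 and GPM2. The share of all genes by that last rule was not counted. For GCY1 and GPM2 the times were 20 and 60 min, and at 60 min 24.3% of all genes lay at least 2-fold away.

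On the side of NADH and glycerol use, NDE1 (YMR145C), which oxidises cytosolic NADH at the inner mitochondrial membrane, was at -0.19, 1.87, 1.76, 2.57 and 1.50. It was close to the pool at 5 min and 2.83-fold to 5.94-fold above it at the 4 later times, with a mean of 1.50 ± 0.35 (SE, n = 5; limma, unadjusted p = 0.00277, adjusted p = 0.128). GUT2, the mitochondrial glycerol 3-phosphate dehydrogenase, which also passes cytosolic NADH to the respiratory chain, was above the pool in 5 of 5 samples, with 0.55, 1.28, 0.47, 0.41 and 0.74 and a mean of 0.69 ± 0.16 (limma, unadjusted p = 0.0028, adjusted p = 0.128). GCY1, a glycerol dehydrogenase, was below it in 5 of 5, with -0.04, -0.99, -1.14, -1.09 and -0.62 and a mean of -0.78 ± 0.19 (limma, unadjusted p = 0.00341, adjusted p = 0.136).

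Around pyruvate, PYC1, a pyruvate carboxylase, was above the pool in 5 of 5 samples, from 0.28 at 5 min to 1.69 at 60 min, with a mean of 0.76 ± 0.21 (limma, unadjusted p = 0.00767, adjusted p = 0.171). PYC1 was at 0.45 in the self-hybridisation, above its values at 5 and 120 min. MPC2, a subunit of the mitochondrial pyruvate carrier, was below the pool in 5 of 5, between -1.02 and -0.17, with a mean of -0.67 ± 0.16 (limma, unadjusted p = 0.00321, adjusted p = 0.136). MPC2 was at -0.22 in the self-hybridisation, lower than at 120 min. With array weights NDE1, GUT2, GCY1, PYC1 and MPC2 all passed, with adjusted p between 0.0115 and 0.0234 in limma, as did 552 of all 5771 genes. NDE1 also passed without the 5 min sample, its only value below the pool (mean 1.93, limma, adjusted p = 0.0295). In that setting 13 of all 5795 genes passed. NDE1 has no value in the self-hybridisation.

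The other hexose-phosphorylating genes had negative late minus early estimates, none of which passed over all genes with the 5 samples. HXK1, the hexokinase that is repressed by glucose, was at 0.86, 0.90, -0.14, -2.19 and -0.82, with a late mean of -1.50, against an early mean of 0.88 (difference -2.38 ± 0.51, limma, unadjusted p = 0.00404, adjusted p = 0.788) and a slope of -0.57 ± 0.17 (unadjusted p = 0.0135, adjusted p = 0.936). Without the 120 min sample its difference was -3.07, and without 60 min it was -1.70, each of which leaves 1 sample as late. Its slope without 120 min was -0.90. EMI2, a glucokinase relative, had a late mean of -1.04, against an early mean of 0.23 (difference -1.27 ± 0.36, unadjusted p = 0.0137, adjusted p = 0.788) and a slope of -0.33 ± 0.09 (unadjusted p = 0.0104, adjusted p = 0.936). GLK1, glucokinase, had a late mean of -0.59, against an early mean of 0.38 (difference -0.97 ± 0.35, limma, unadjusted p = 0.032, adjusted p = 0.788). GPM2, a further phosphoglycerate mutase gene, was at 0.48, -0.28, -1.09, -2.30 and -0.10, and at 1.33 in the self-hybridisation.

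ADH4 (YGL256W), an alcohol dehydrogenase of a separate protein family, ran opposite to ADH1 and ADH2. It was at -0.46, -0.18, -0.07, 0.68 and 1.52, so at 120 min it was 2.87-fold above the pool, while ADH1 and ADH2 were below it. Its slope was 0.41 ± 0.09 per doubling of time (SE, n = 5; limma, unadjusted p = 0.00236, adjusted p = 0.936). Its late mean was 1.10, against an early mean of -0.32, a difference of 1.42 ± 0.41 (limma, unadjusted p = 0.0148, adjusted p = 0.788).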

How the data were processed

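The deposited values were read as natural log ratios, from their lowest value alone, of 2-colour arrays that the authors had normalized; each aerated sample condenses a dye-swap pair, per the labels' series design text. How they were normalized, corrected for background or filtered is not given in the sources used here. Values were divided by 0.6931 to give log2 ratios. Of 6495 features, 5754 had 1 gene symbol, 0 had several and 741 had none; all 5754 matched the R64 gene table. Features of 1 gene were averaged, which joined pairs for 25 genes. All 6 sample columns were used.

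The mean, the slope on log2 minutes and the difference of late (60 and 120 min) from early (5 and 10 min), with 20 min as a phase of its own, were fitted with limma 3.58.1 in R 4.3.3 on 5771 genes with all 5 values, two-sided, with Benjamini-Hochberg adjustment over all genes at 0.05. The fits were also run on simulated data with independent noise. Those data had no shared pool error and no sample of wider spread, so they cannot speak to these limits. The flasks of the times are the replicates, so in the mean a change over time adds to the spread.

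Every one of the 33 genes is named with its level or range; statistics are printed for those with an unadjusted p under 0.05 and for the 5 largest estimates of a comparison. Of the 35 other genes, those with such a p or 2-fold at 2 or more times are named. The members and lists were chosen with earlier results of these data known. Alternatives were other centring, scaling, weights, priors and gene sets, and leaving out each time.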

Additional observations from a re-analysis of the deposited data

How the results depend on the processing

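No paired analysis was possible because each aeration time is 1 sample and the labels give no replicate numbers. Beside the main counts of 0 genes for the mean, 1 for the trend and 0 for late minus early, scaling to the same spread gave 57, 2 and 1, array weights gave 552, 0 and 0, centring gave 0 for the trend, and the genes with a self-hybridisation value gave 1 for the mean. Leaving out each time gave 0 to 13 genes for the mean (13 without 5 min, 6 without 60 min), 0 for the trend at every omission, and 0 to 1099 for late minus early (3 without 5 min, 10 without 10 min, 1099 without 120 min, where 60 min alone stands for late and is assumed to vary like the other samples). Of the 33 genes 4 passed for the mean with array weights (ADH5, GPD2, GPP2 and PYK2) and 3 for late minus early without 120 min (FBP26, GCR1 and PFK26). The median slope of the genes was -0.065, with array weights -0.118 and, leaving out each time, -0.144 (without 120 min) to -0.0054 (without 5 min). Their median late minus early difference was -0.279, with a range of -0.402 (without 10 min) to -0.120 (without 5 min). Their median mean over the times was -0.085, with a range of -0.138 to -0.0004. At least 2-fold from the pool were 2 genes at 5 min and 2 at 60 min after scaling, and 1 at 20 min and 1 at 120 min with the deposited values read as log2. Of the 303 estimates of single genes under alternatives 291 kept their direction and side of the threshold, and 0 changed sign. These genes were picked by their main fits and the alternatives reuse the same samples, so this is no independent check. The cause of the moves above was not tested. Spot signal was not used here, so which ratios come from dim spots is unknown.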

Other observations

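ADH5 has a gene near it on its chromosome with a similar course, which was noticed after the values were seen. RTC2 (YBR147W), which encodes a putative vacuolar transporter and lies 2 protein-coding genes away from ADH5, had log2 ratios of -2.41, -3.17, -3.49, -1.67 and -1.07 from 5 to 120 min, beside 0.25 in the self-hybridisation. MRPS9 (YBR146W), a mitochondrial ribosomal protein gene that lies between both, was at 0.07, 0.25, 0.42, -0.17 and 0.08. SUP45 (YBR143C), 2 genes away on the other side, was at -0.42, 0.33, 0.35, -0.34 and 0.43. ADH5 differed from RTC2 most at 5 min, where ADH5 was at -0.46.

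Values in the self-hybridisation were present for 22 of the 33 genes. The share without one was 33.3% of the 33 genes and 45.6% of all genes. The 11 without a value include TDH1, TDH2, TDH3, FBA1, GPM1, ENO1, ENO2 and ADH1, and each of these 8 has a value at all 5 aeration times.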
